A study of Mus musculus with 13 samples.

Results

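The immunoglobulin kappa variable (Igkv) segments are the genes from which the variable part of the kappa light chain is built. All genes whose symbol starts with Igkv and that had 20 or more unique molecular identifiers (UMIs) in the whole transcriptome (WT) library were taken as members, which gave 94 of the 160 Igkv genes in a gene list of 57010. The total UMI count of each gene therefore chose the members and is given as a description only. The members held 32967 of 33284 Igkv UMIs, 51 other Igkv genes had 1 to 19 UMIs and 15 had 0. Just inside the limit stood Igkv13-82 and Igkv6-29 with 20 UMIs each and Igkv12-38, Igkv4-58 and Igkv6-14 with 22 each. Just outside stood Igkv2-113 with 19, Igkv11-106 and Igkv13-87 with 18 each, Igkv4-92 with 16 and Igkv14-130 with 15.

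A B cell precursor joins 1 V segment to a J segment of the kappa locus, and the joined exon is spliced to the constant exon Igkc. Descendants of the cell usually keep the join, so cells of a clone tend to share their V segment. Unrelated cells can use the same segment, so a V segment alone does not mark a clone. A B cell normally displays a light chain of a single specificity. Plasma cells, which secrete antibody, carry far more immunoglobulin RNA than resting B cells. Thymocytes rearrange T cell receptor genes with the same Rag enzymes and are not known to make kappa chains, and the thymus also holds small populations of B and plasma cells.

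Split-pool barcoding marks fixed cells by the wells they pass, and the first-round well gives the tissue sample. The labels describe mouse thymus and spleen, young and adult mice, and control and chronic stress treatments, but tie neither tissue nor treatment to the wells. The cell table of the WT library names 16 samples (CVS_C_1 to CVS_C_5, CVS_S_1 to CVS_S_6 and YD_C_1 to YD_C_5) outside wells C7 to C12, D1 and D2. These names match no label, so the 16 samples have no groups here, each is described by its own value and no test was made. Wells C7 to C12, D1 and D2 hold the 4 thymic samples, called tenxP_1 to tenxP_4, which are from young female C57BL/6N mice. The Mini library holds 4 thymic control samples, T-1-A, T-1-B, T-2-A and T-2-B, from young female mice of the same strain. Each set of 4 thymic samples came from a pair of mice, so its samples are not 4 animals. The cells numbered 86786 in the 16 samples, 41838 in the thymic wells and 20085 in the Mini library, and the median depth of a sample was 1527 to 8039, 3227 to 4263 and 2388 to 3221 UMIs per cell. Cells of a sample share their animal and are not replicates. The intervals given below are 95% intervals by the exact method of Clopper and Pearson, which account for counting error alone.

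Cells were clustered without any immunoglobulin gene. In the 16 samples, 38957 cells fell in clusters called B-like and 1106 in a cluster called plasma-like. Cd79a, a signalling subunit of the B cell receptor, had a UMI in 48.1% of B-like and 1.23% of T-like cells. Markers of plasma cells, such as Jchain and Xbp1, had a median of 52.2 UMIs per 10000 in plasma-like cells and 2.51 in B-like cells. A further 12456 cells were in 4 clusters left unnamed, and these held 6266 Igkv UMIs, a level of 83.3 CPM beside 93.4 CPM in B-like cells. CPM stands here for UMIs scaled to a total of 1000000 UMIs outside ribosomal RNA. Cluster 9 among them had 2750 of its 2758 cells in CVS_C_5 and cluster 10 had 2267 of its 2281 in CVS_S_5, where only 70 cells were B-like. The use of segments is given below for the named classes, and so leaves these clusters out.

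Some cells may carry RNA under more than 1 well barcode, and this touches the thymic results. A companion of a cell is defined here as a cell of the same sublibrary with the same second- and third-round wells, a first-round well in the same plate column and at least 5 times as many UMIs. Companions were found for 287 of 376 B-like cells of the thymic wells (76.3%), all of them cells of the 16 samples. In the thymic wells outside B-like it was 473 of 41462 cells (1.14%), and in B-like cells of the 16 samples 2.55%. Companions were also found for 1879 of 2094 thymocyte-like cells of the 16 samples (89.7%), 1847 of them cells of the thymic wells. Among thymic B-like cells, 95.3% of the 148 in sub-cluster 2 and all 146 in sub-cluster 3 had a companion, at median depths of 943.5 and 982.5 UMIs. None of the 82 in sub-cluster 4, at 3260 UMIs, had a companion. A deeper cell by the same rule but in any other plate column was found for 42.6% of all 376 thymic B-like cells and 16.1% of thymic cells outside B-like. For thymocyte-like and B-like cells of the 16 samples it was 46.9% and 19.3%. Of all WT cells, 34.9% had a well combination found in 2 or more sublibraries, and 3251 of 20085 Mini cells had one found in the WT library. How many such matches the number of wells gives by itself was not computed, so these counts do not show shared RNA. Results on B-like cells of the thymic wells are therefore given with and without cells that have a companion.

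The ends of the V exons, next to the site of joining, are printed for the segments that the results turn on. Each line gives the last 30 bases of the annotated transcript, 5′ to 3′, with the codon of the conserved cysteine before the joining site in capitals (GENCODE M21 on GRCm38). The set holds segments that lead the pooled count of B-like or plasma-like cells or that of some samples, and pseudogenes compared with them.
Igkv2-107: gaggatgtcaacaagttctagagtatcttc
Igkv2-109: ttacTGTgctcaaaatctagaacttcctcc
Igkv2-116: ttacTGTgctcaactgctagaactccctcc
Igkv1-110: tttcTGCtctcaaagtacacatgttcctcc
Igkv1-117: ttacTGCtttcaaggttcacatgttcctcc
Igkv4-68: acTGCcagcagtggagtagtaacccaccca
Igkv14-126: ttacTGTctacagcatggtgagagccctcc
Igkv17-127: ctacTGTttgcaaagtgataacatgcctct
Igkv1-99: ttatTGCttccagagtaactatcttcctct
Igkv1-88: ttacTGCttacaaggtacacatcagcctcc
Igkv2-107 alone in this set has no codon in capitals. The motif searched, TANTNNTGN on the transcript strand in the last 36 bases, was not found there. Its printed end does hold the bases tgt, but the bases before them differ from the motif. Whether this tgt is the cysteine codon was not examined. The motif was found in 89 of the 94 members (94.7%) and in 131 of all 160 Igkv genes (81.9%). The annotation calls 85 members V genes and 9 V pseudogenes. A reading frame from an ATG near the start of the transcript and open to its end was found in 84 of the 85 V genes and in 2 of the 9 pseudogenes, Igkv12-47 and Igkv2-116.

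In B-like cells of the 16 samples all 94 members were detected. These cells held 15017 Igkv UMIs, and 9408 of 38957 cells (24.1%, interval 23.7 to 24.6%) had at least 1, of which 6528 held a single Igkv UMI. Igkv2-107, at chr6:68326098-68326752, was the most abundant segment with 1815 UMIs (12.1%, 11.6 to 12.6%) in 1583 cells. Igkv4-68 followed with 1607 (10.7%), Igkv1-110 with 1202 (8.00%), Igkv2-109 with 895 (5.96%), Igkv17-127 with 696 (4.63%) and Igkv1-117 with 658 (4.38%). Igkv1-88, Igkv14-126, Igkv14-111 and Igkv5-43 had 537, 484, 371 and 366 UMIs. The 10 leading segments held 57.5% of the Igkv UMIs of B-like cells, and the other 84 members and the rarer Igkv genes shared the rest.

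The segments that led the pooled count did so in different ways across samples. Among the 15 samples with 50 or more Igkv-positive B-like cells, Igkv2-107 was in 4.26 to 26.3% of these cells with a median of 12.3%. Igkv1-110 ranged from 7.04 to 20.4% with a median of 9.52%, and Igkv1-117 from 1.52 to 9.86% with a median of 5.66%. These segments were present in all 15 samples. Igkv4-68 was between 0 and 57.8% with a median of only 0.773%, and 1100 of its 1165 B-like cells were in CVS_C_3. The pooled rank of Igkv4-68 was set by that sample: without CVS_C_3 its share was 0.834%. In the same way the share of Igkv14-126 was 0.295% without CVS_S_2, which had 333 of its 368 cells, that of Igkv17-127 2.09% without CVS_C_5, and that of Igkv1-88 2.14% without CVS_S_2. Igkv14-111 had 135 of its 371 UMIs in CVS_C_3. Igkv5-43 had 150 of its 366 UMIs in 10 cells of CVS_C_3, 132 of them in a single cell, and without that sample it ranked 12th. Without CVS_C_5 or without CVS_S_2, Igkv4-68 and not Igkv2-107 headed the pooled count.

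**Figure D1:**
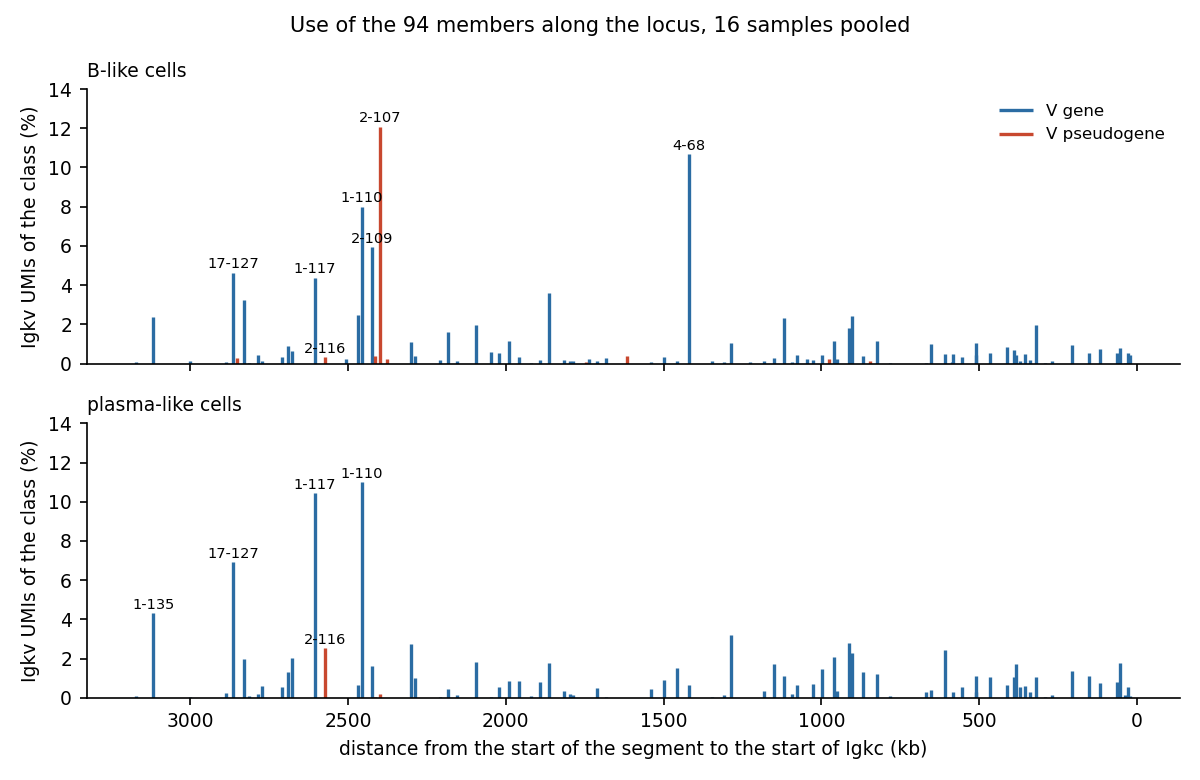
Share of the Igkv UMIs of B-like (top) and plasma-like (bottom) cells of the 16 samples taken by each of the 94 members, against distance to Igkc. The distance, in kb, runs from the end coordinate of the segment to the start of Igkc, although the axis label names the start of the segment. Blue lines are V genes and red lines V pseudogenes. Igkv2-107 reaches 12.1% in B-like cells and 0.172% in plasma-like cells, where Igkv1-110 and Igkv1-117 lead with 11% and 10.4%.

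Position along the locus was described next. The locus lies on chromosome 6 and spans 3171 kb from the first Igkv gene to Igkc, with segments on both strands. The 45 members in the part of the gene order farther from Igkc held 61.1% of the Igkv UMIs of B-like cells and 58.6% of those of plasma-like cells, and the 49 nearer members 37.6% and 41.3%. The 39 members on the plus strand held 56.6% and 57.6%. These shares are pooled. Igkv4-68, on the minus strand, had 1515 of its 1607 B-like UMIs in CVS_C_3, and the shares by position and strand were not computed without that sample. By family, the 8 members of Igkv1 held 20.8% in B-like and 28.6% in plasma-like cells, the 6 members of Igkv2 held 18.9% and 4.45%, and the 22 members of Igkv4 held 17.8% and 13.5%. The Igkv4 share of B-like cells rested on CVS_C_3, without which it was 6.69% in B-like and 12.5% in plasma-like cells, so that the order of the classes turned. Without that sample Igkv1 held 25% and 29.3%, and Igkv2 18.6% and 4.53%. The plasma-like share of Igkv2 was 2.18% without CVS_S_4, which held all plasma-like UMIs of Igkv2-116. The Igkv2 family showed the widest gap of these, and it rested on Igkv2-107 and Igkv2-109.

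Plasma-like cells carried the segments at a much higher level. They had 9308 Igkv UMIs, or 2494 CPM, 26.7 times the level of B-like cells. A segment was seen in 876 of 1106 cells (79.2%, 76.7 to 81.6%), with a median of 5 Igkv UMIs among these cells. The level was higher in plasma-like than in B-like cells in each sample, at 587 to 3553 CPM (median 2160) against 57.9 to 164 (median 97.8). Of the 94 members, 88 were detected, and 71 reached 5 or more UMIs in some plasma-like cell.

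Igkv1-110 led the plasma-like cells with 1024 UMIs (11%, 10.4 to 11.7%) in 66 cells of 14 samples. Igkv1-117 had 972 UMIs in 52 cells, Igkv17-127 had 645 in 31, Igkv1-135 had 401 in 52 and Igkv4-59 had 296 in 31. For Igkv17-127, 572 of the UMIs were in CVS_C_5, and 73 (0.891%) remained without that sample. For Igkv4-59, 182 were in CVS_S_3 and 114 (1.36%) remained without it. Igkv1-117 had 289 in CVS_S_4, 147 of them in a single cell, and held 8.47% without that sample. Igkv1-135 had 129 in YD_C_3 and held 3.16% without that sample. Igkv1-110 held 8.86% without CVS_S_5, where Igkv1-117 was ahead of it. Counted by cells, with each cell given to its main segment, Igkv1-110 took 6.65%, since a few cells held many of its UMIs (up to 128 in a cell). In CVS_S_4 the segment had 219 UMIs in 16 cells and in CVS_S_5 253 in 11, whereas CVS_C_3 and CVS_S_1, with 11 and 10 Igkv-positive plasma-like cells, had none. Relative to B-like cells, the members with the largest ratio of shares, among those with 20 or more UMIs in both classes together, were Igkv4-70 (12.6), Igkv2-116 (8.10), Igkv7-33 (7.80), Igkv4-57 (5.87) and Igkv4-74 (5.51). Most of these rested on few samples. All 236 plasma-like UMIs of Igkv2-116 were in CVS_S_4 and all 29 of Igkv7-33 in 2 cells of YD_C_3, so that neither had any without that sample. Igkv4-57 had 85 of 160 UMIs in YD_C_2 and 54 in a single cell, and its ratio without YD_C_2 was 3.43. The ratio of Igkv4-70, seen in 16 cells, was 9.63 without CVS_S_4, and that of Igkv4-74, seen in 12, was 5.40 without YD_C_2.

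Pseudogenes made up different shares of the Igkv UMIs of both classes. The 9 pseudogene members took 14.1% (13.6 to 14.7%) of the Igkv UMIs of B-like cells and 2.74% (2.42 to 3.09%) of those of plasma-like cells. Igkv2-116 made up nearly all of the second value: without it the plasma-like share was 0.209%, and without sample CVS_S_4 it was 0.223%. The 8 other pseudogenes had 2074 UMIs in B-like cells, 1815 of them of Igkv2-107, so that this gene made up most of the B-like share. They had 19 in plasma-like cells, and none had more than 1 UMI in a plasma-like cell. Among members with 20 or more UMIs in both classes together, the smallest ratios of plasma-like to B-like share were those of the pseudogenes Igkv12-47, Igkv14-126-1 and Igkv4-77, which had 35, 45 and 56 UMIs in B-like cells and none in plasma-like cells, of Igkv2-107 (0.0142) and of the V gene Igkv4-51 (0.0425, from 1 plasma-like UMI). For Igkv14-126-1, 44 of the 45 B-like UMIs were in CVS_S_2.

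Igkv2-107 and Igkv2-116 are both annotated as pseudogenes and behaved differently. Igkv2-107 has a transcript of 313 bases with 3 stop codons in its best frame, and none of its 50-base words occurs in another Igkv gene. It had 1815 UMIs in B-like cells and 16 in plasma-like cells, 1 UMI in each of 16 cells from 10 samples, and 93.8% of these cells also held another segment. In B-like cells it was accompanied by another segment in 44.7% of its cells, and it reached 16 UMIs in a cell. Igkv2-116, at chr6:68151885-68152617, has a transcript of 362 bases with a frame open to its end and holds the motif with the cysteine codon printed above. It had 236 UMIs in 33 plasma-like cells, all in CVS_S_4, with up to 49 in a cell, and 9.09% of these cells held another segment. For comparison, 707 of all 876 Igkv-positive plasma-like cells and 7575 of all 9408 Igkv-positive B-like cells held 1 segment alone. Igkv12-47, the other pseudogene member with an open frame, also holds the motif, and had 35 UMIs in B-like cells and none in plasma-like cells. The counts do not separate transcripts of joined segments from those of unjoined ones, so whether Igkv2-107 RNA came from joined segments was not tested.

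**Figure D2:**
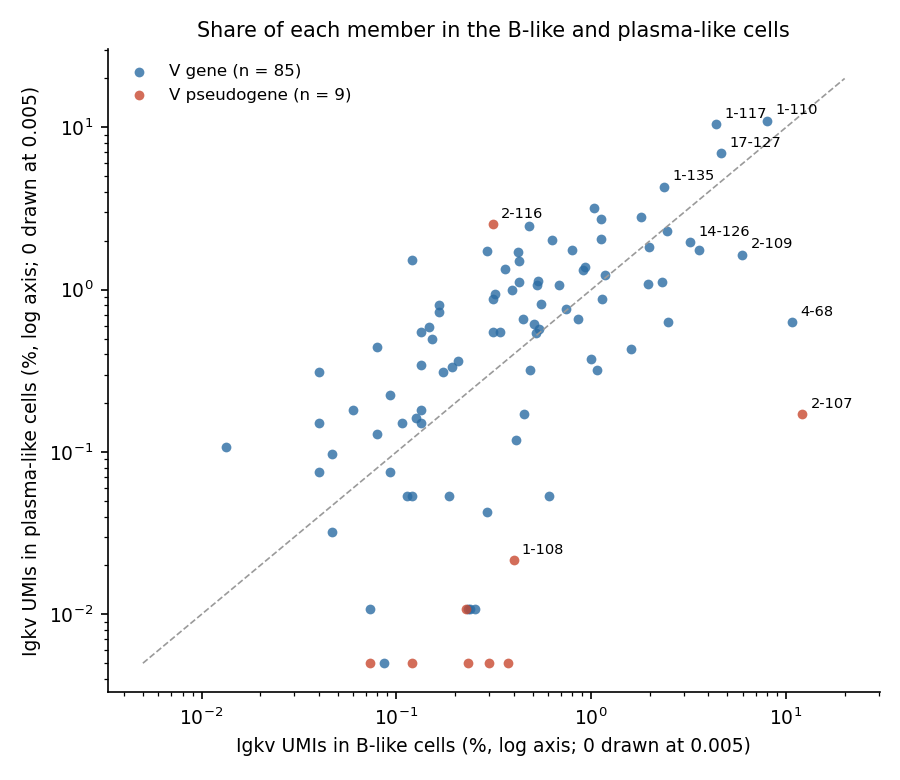
Share of each member among the Igkv UMIs of plasma-like cells against that of B-like cells, 16 samples pooled, both in percent on log axes, with 0 drawn at 0.005. The dashed line marks equal shares. Igkv2-116 stands above the line and the other pseudogenes below it, with Igkv2-107 at 12.1% against 0.172%.

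Several segments stood out in a single sample, defined as 10% or more of the Igkv-positive cells of the class, at least 5 times the median of the other samples, and at least 20 B-like or 10 plasma-like cells. In each case the heavy chain V (Ighv) segments of the same cells were examined. The rule had not used them, but the Ighv segment named is the one found in most of the picked cells. A higher share there than in the remaining cells is therefore partly fixed by that choice. The picked cells were also deeper in each case, with medians of 17491 against 7746 UMIs for Igkv4-68 in CVS_C_3. The part of depth was not tested. Samples and segments were picked by their counts, so the shares are a description.

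Igkv4-68, at chr6:69304834-69305405, was in 1100 of 1903 Igkv-positive B-like cells of CVS_C_3 (57.8%, 55.5 to 60.04%), against a median of 0.709% in the other samples. Of its cells with an Ighv UMI, 865 of 879 (98.4%) held Ighv1-67. B-like cells of CVS_C_3 without an Igkv4-68 UMI held Ighv1-67 in 93.1% of those with an Ighv UMI, and B-like cells of the other samples in 1.87%. Most of the Igkv4-68 cells (73.5%) lay in cluster 6, which had 92.6% of its 4849 cells in CVS_C_3. Nearly all B-like cells of CVS_C_3 with a detected heavy chain segment thus held Ighv1-67, with or without an Igkv4-68 UMI. Outside B-like and plasma-like cells Igkv4-68 was in 31 cells of CVS_C_3 and in 195 of CVS_C_5, with at most 2 UMIs per cell in the latter.

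Igkv14-126, at chr6:67896172-67896642, was in 333 of 1266 positive B-like cells of CVS_S_2 (26.3%, 23.9 to 28.8%), and in 5 or fewer such cells of each other sample. Its cells carried Ighv11-2 in 222 of 236 (94.1%), compared with 46.3% of the other B-like cells of CVS_S_2 with an Ighv UMI and 0.533% of such cells of other samples. Ighv11-2 with Igkv14-126 is known as a pair of B-1 cells whose receptor binds phosphatidylcholine. Igkv17-127 was in 131 positive cells of the same sample, and 96.1% of these with an Ighv UMI also held Ighv11-2, against 50.4% of the remaining B-like cells with an Ighv UMI. In CVS_S_2 the adjoining pseudogene Igkv14-126-1 had 42 of its 43 B-like cells as well.

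Igkv17-127 and Igkv1-99 stood out together in CVS_C_5, with 278 (26.2%) and 189 (17.8%) of 1060 positive B-like cells. Both came with Ighv1-82, in 63.3% and 71.5% of their cells with an Ighv UMI, against 22.5% and 23.8% of the remaining B-like cells of the sample with an Ighv UMI and 0.504% of those elsewhere. In plasma-like cells of CVS_C_5 Igkv17-127 was in 18 of 43 positive cells, 16 of which held Ighv1-82, and Ighm made up 96.8% of the heavy chain constant region UMIs of these cells. Igkv1-99 was in 10 plasma-like cells, all of CVS_C_5 and all with a UMI of Ighv1-80, a close relative of Ighv1-82 whose reads may be split between both.

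Igkv1-88 stood out in CVS_S_2 (170 cells, 13.4%) and in CVS_S_3 (140 cells, 17.7%). Of its cells with an Ighv UMI, 68.5% held Ighv3-2 in the first sample and 58.5% held Ighv3-1 in the second, against 8.92% and 11.7% of the remaining cells with an Ighv UMI, although reads of these related Ighv genes may be split between them. In CVS_S_1 Igkv5-43 (54 cells, 21%) and Igkv17-121 (33 cells, 12.8%) stood out, and both came with Ighv5-12, in 20 of 21 and 11 of 12 cells with an Ighv UMI. The remaining B-like cells of CVS_S_1 with an Ighv UMI held Ighv5-12 in 59.1% and 60% as well, and those of other samples in 1.53%. In CVS_S_6 Igkv1-135 was in 17 of 56 positive plasma-like cells, of which 5 of 15 with an Ighv UMI held the leading Ighv14-1.

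The open pseudogene Igkv2-116 stood out in CVS_S_4 in both classes. It was in 21 of 141 positive B-like cells (14.9%) and in 33 of 131 positive plasma-like cells (25.2%, 18 to 33.5%). The plasma-like cells held Ighv1-77 in 31 of 32 with an Ighv UMI, against 5.83% of the other plasma-like cells of the sample with an Ighv UMI and 0.80% of those elsewhere. Igha, the constant region of IgA, made up 97.7% of their heavy chain constant region UMIs and 14.2% in the other plasma-like cells of CVS_S_4.

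**Figure D3:**
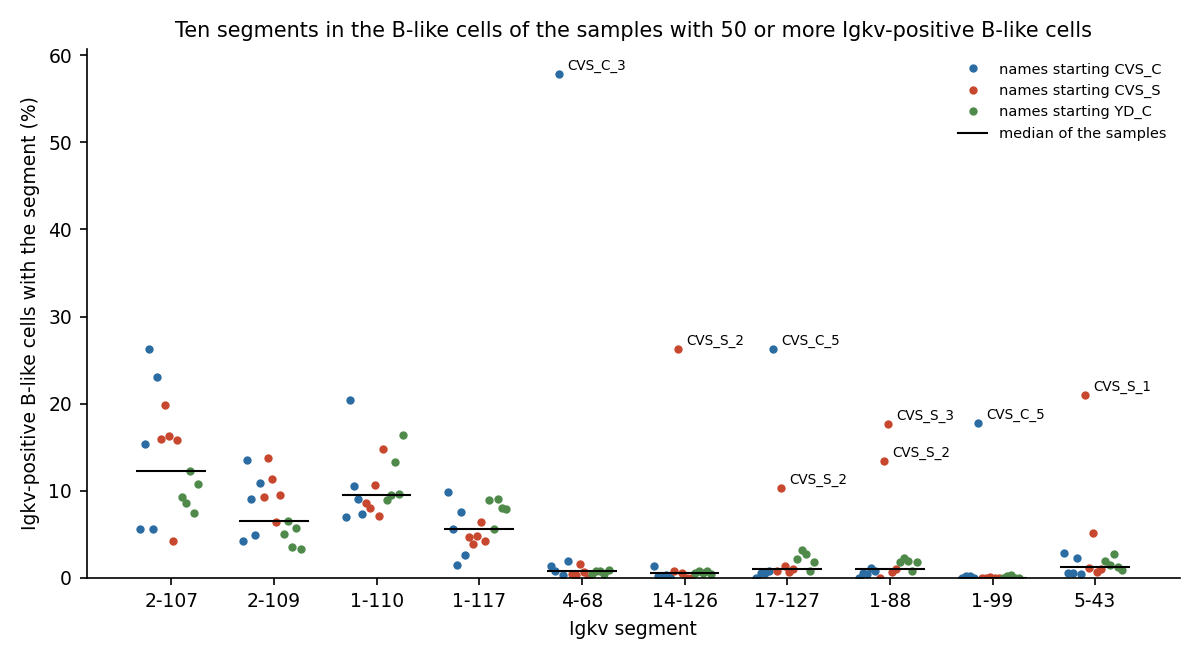
Percent of the Igkv-positive B-like cells that held each of 10 segments, in the 15 samples with 50 or more such cells. Each point is a sample, coloured by the start of its name, and bars are medians. Igkv2-107, Igkv2-109, Igkv1-110 and Igkv1-117 spread over all samples, while the other 6 have low medians and stand high in the named samples, with Igkv4-68 at 57.8% in CVS_C_3.

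No sample whose name starts with YD had a segment that stood out by all 3 limits. Below the limit of 10 plasma-like cells, Igkv1-88 was in 9 of 44 positive cells of CVS_S_2 and Igkv8-27 in 3 of 29 of YD_C_5. The effective number of segments (inverse Simpson index of UMIs) is the number of equally used segments that would give the same spread. In B-like cells it was 2.58 to 33.2 over the 16 samples, with a median of 15.8. CVS_C_3 had 5.53, CVS_C_5 8.98 and CVS_S_2 10.3. The lowest value, in CVS_S_5, rested on 7 Igkv UMIs. The index was not adjusted for the number of Igkv UMIs, which reached 3989 in CVS_C_3. Since the labels do not say what these samples are, no comparison was made.

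Counting a segment at 1 UMI, plasma-like cells held more than 1 segment less often than B-like cells with like numbers of Igkv UMIs. Of plasma-like cells with 2 or more Igkv UMIs, 169 of 737 (22.9%, 19.9 to 26.1%) held more than 1 segment, and 90.8% had at least 80% of their Igkv UMIs in 1 segment. Of B-like cells with 2 or more, 1833 of 2880 (63.6%, 61.9 to 65.4%) held more than 1, and 37.5% had 80% in 1 segment. A rule that needs 2 UMIs for a segment can be met only by cells with 4 or more Igkv UMIs, which were 373 of these 2880 B-like and 557 of the 737 plasma-like cells. Of those, 73 B-like (19.6%, 15.7 to 24.0%) and 61 plasma-like cells (11%, 8.48 to 13.8%) held more than 1 segment at 2 UMIs each. Counting a segment at 1 UMI, the B-like share without pseudogenes was 54.2%, and without cells over 10000 UMIs 56.1%. B-like cells with more than 1 segment had a median depth of 9388 UMIs against 5775 for those with 1. In all, 7575 B-like cells had 1 segment, 1427 had 2, 328 had 3 and 78 had 4 or more, up to 26 in a cell. The part of depth, of RNA from other cells and of doublets in these numbers was not tested.

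**Figure D4:**
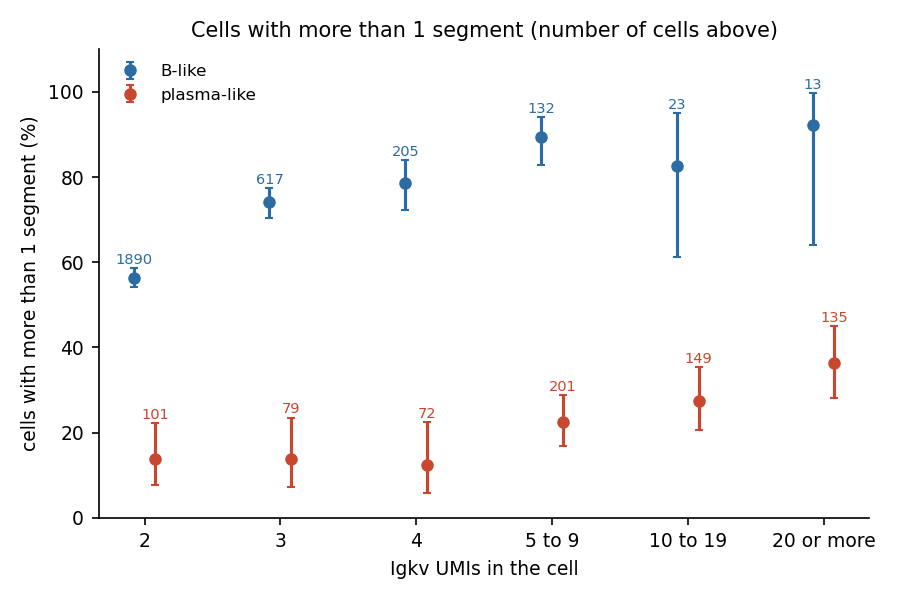
Percent of B-like (blue) and plasma-like (red) cells of the 16 samples with more than 1 segment, by the number of Igkv UMIs in the cell, with exact 95% intervals and the number of cells above each point. B-like cells lie between 56.4% and 92.3%, plasma-like cells between 12.5% and 36.3%.

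Plasma-like cells with a main segment give the clearest view of what accompanies it. In 442 cells 1 segment held 5 or more UMIs and at least 80% of the Igkv UMIs. A total of 102 second segments were seen beside it, 78 of them at 1 UMI. Igkv2-107 was the most frequent, in 11 cells with 7 different main segments and always at 1 UMI. Igkv1-99 came next, in 9 cells with 2 to 6 UMIs, each time beside the same main segment.

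That pair was Igkv17-127 and Igkv1-99, whose starts are 680 kb apart. All 10 plasma-like cells with Igkv1-99 also held Igkv17-127, with a median of 38 UMIs of Igkv17-127 and 4 of Igkv1-99 in the cell. Among B-like cells of at most 25000 UMIs, 54 of the 190 cells with Igkv1-99 (28.4%) held Igkv17-127, and all 54 were in CVS_C_5, where 9.82% of all B-like cells held Igkv17-127. Other frequent pairs in B-like cells involved Igkv2-107. It was found with Igkv2-109 in 103 cells of 10 samples, 14% of the cells with Igkv2-109, while 3.59% of all these B-like cells held Igkv2-107. The starts of both genes are 23.7 kb apart. Igkv2-107 was found in 16.1% of Igkv14-126 cells of CVS_S_2, in 15.1% of Igkv17-127 cells of CVS_C_5 and in 8.28% of Igkv4-68 cells of CVS_C_3, against 6.79%, 8.41% and 6.25% of all B-like cells of these samples. Cells with any Igkv UMI are deeper than the rest, and the part of depth in these values was not tested.

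The other genes of the light chain list put these levels in context. Igkc, the kappa constant exon, was at 238 CPM in B-like and 10538 in plasma-like cells, 2.54 and 4.23 UMIs for each Igkv UMI. Of cells with an Igkv UMI, 98.3% of plasma-like but only 56.5% of B-like cells had Igkc. A lambda UMI (Iglc or Iglv) was seen in 50.1% of B-like and 52.1% of plasma-like cells with an Igkv UMI, beside 35.5% and 53.2% of all cells of these classes, and B-like cells with any Igkv UMI are deeper than the rest. Iglc2 was the leading lambda constant gene of B-like cells (80.1 CPM) and Iglc1 of plasma-like cells (1059). Rag1, which cuts the locus for joining, was at 5.07 CPM in B-like, 6.90 in T-like and 8.84 in plasma-like cells of the 16 samples. In thymocyte-like cells of the thymic wells it was at 780. Igll1 and Vpreb1, the surrogate light chain of precursors, had 1 and 20 UMIs in all B-like cells. Of 20 listed genes, all 20 were found in the gene list, and the Igkj genes had no UMI in any class examined.

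T-like cells, which should lack Igkv, were taken as the background. T-like cells of the 16 samples had 242 Igkv UMIs, 6.58 CPM, with a UMI in 207 of 16335 cells (1.27%, 1.10 to 1.45%) at a median depth of 2374 UMIs, compared with 24.1% of B-like cells at 2825. The level in T-like cells was 0.0705 times that in B-like cells. By sample it was 0 to 27.5 CPM with a median of 5.57, below the lowest B-like value of 57.9 in each sample. Other classes were higher, at 16.8 CPM in NK-like, 21.2 in erythroid-like, 27.0 in dendritic cell-like and 53.5 in neutrophil-like cells. Their clusters differed: erythroid-like cluster 14 was at 108 CPM, above the B-like level, with Igkc at 445 CPM, and erythroid-like cluster 7 at 16.9 CPM. Neutrophil-like clusters 20 and 15 were at 76.8 and 8.88 CPM. Thinned to 1000 UMIs per cell, the share of cells with an Igkv UMI was 0.522% of T-like, 7.69% of B-like and 61.0% of plasma-like cells. The 10 leading B-like segments made up 35.5% (29.5 to 41.9%) of the Igkv UMIs of T-like cells, compared with 57.5% in B-like and 37.5% in plasma-like cells, and Igkv1-110 led with 26 UMIs. These 10 were picked by their counts in B-like cells, which fixes a high share there, and CVS_C_3 had 5 of the 242 T-like UMIs. Without CVS_C_3 they made up 35%, 52.2% and 38% in T-like, B-like and plasma-like cells.

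**Figure D5:**
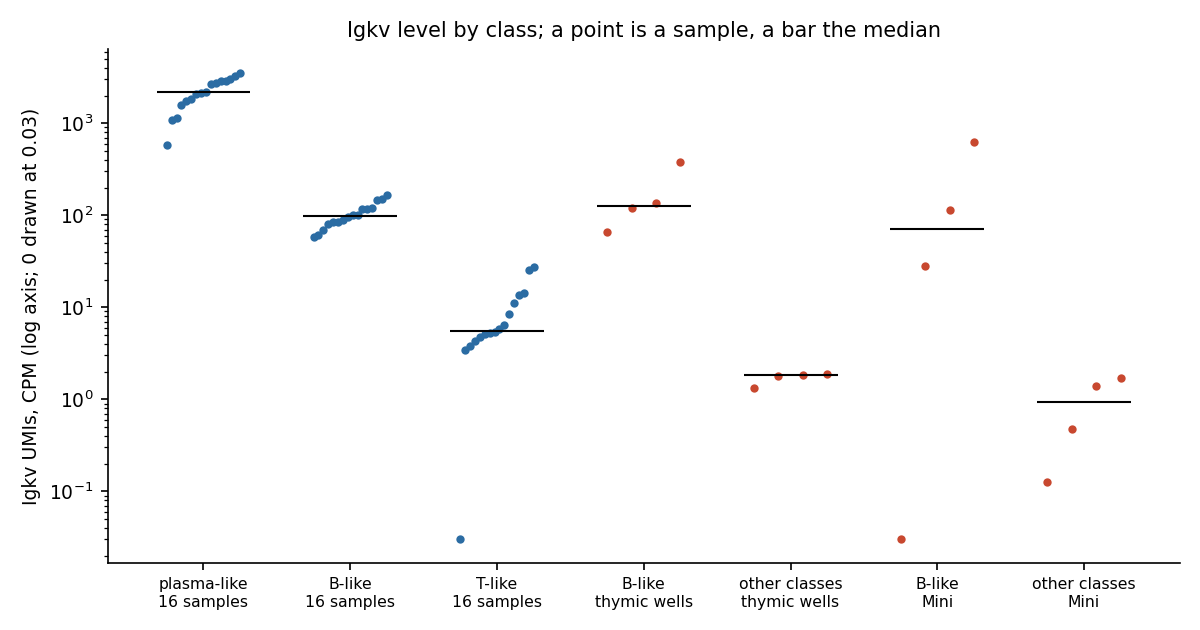
Igkv level in CPM (log axis, 0 drawn at 0.03) by class. Each point is a sample, sorted by value, and bars are medians. Plasma-like cells of the 16 samples lie between 587 and 3553, B-like cells between 57.9 and 164, and cells outside B-like of the thymic wells between 1.34 and 1.89.

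The thymic wells of the WT library held 376 B-like cells and no cluster that could be called plasma-like. These B-like cells had 130 Igkv UMIs, and 44 had a UMI (11.7%, 8.63 to 15.4%). By sample the Igkv UMIs numbered 101, 6, 8 and 15 in tenxP_1 to tenxP_4, in 233, 80, 30 and 33 B-like cells. Of the 101 in tenxP_1, a cell held 41 and another 16. The share of positive cells in tenxP_1 (13.3%) was below that in tenxP_3 (20%). The 89 cells without a companion had 69 UMIs, and 13 of them (14.6%, 8.01 to 23.7%) were positive, with 43, 3, 8 and 15 UMIs by sample. In the 287 with a companion the median depth was 960 UMIs, and in their companions 44016, and 198 of them were in well C8, 152 of these with the companion in well A8. In 17 of the 31 Igkv-positive cells with a companion, the companion held the same segment. The cell with 16 UMIs of Igkv4-55 had a companion with 258, that with 9 of Igkv5-43 a companion with 132, and that with 3 of Igkv15-103 a companion with 53. Others matched less well. A cell with 3 UMIs of Igkv4-68 had a companion of 495259 UMIs with 4 of that segment among 13 Igkv UMIs. A cell with 2 UMIs of Igkv4-68 had a companion with no Igkv UMI.

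The thymic cells without a companion that held the most kappa RNA included cells with plasma cell markers. A B-like cell of tenxP_1 held 41 UMIs of Igkv12-46 with 275 of Igkc, and its plasma markers came to 80.4 per 10000 UMIs and its B markers to 7.07. A B-like cell of tenxP_4 held 15 UMIs of Igkv1-117 and 168 of Igkc, with 92.7 and 3.12 per 10000. An unnamed cell of tenxP_4 held 13 of Igkv3-2 and 133 of Igkc, with 81.2 and 11.6. Plasma-like cells of the 16 samples had medians of 52.2 and 10.7. A thymocyte-like cell of well C8 with 427299 UMIs held 14 of Igkv4-55, the segment of the cell with 16 UMIs in the same well, and its plasma markers came to 7.02.

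Outside B-like cells, the thymic wells had 456 Igkv UMIs, 1.80 CPM, with a UMI in 358 of 41462 cells (0.863%, 0.777 to 0.957%). Thinned to 1000 UMIs per cell the share was 0.151%. Of the 358, 323 had 1 Igkv UMI, 18 had 2 and 17 had 3 or more. Igkc was present in 16.7% of those with 1, in 55.6% of those with 2 and in all 17 with 3 or more (median 45 Igkc UMIs), compared with 3.20% of cells with none. Depth moved with these shares, with medians of 11229 UMIs in cells with 1 Igkv UMI, 13370 in those with 2, 32570 in those with 3 or more and 3639 in those with none, and its part was not tested. In 15 of the 17 cells a single segment made up all Igkv UMIs, and plasma markers had a median of 12.5 per 10000 UMIs against 4.81 in cells without Igkv. B markers had medians of 5.99 and 5.47. Jchain, which links IgA and IgM units, was in 15 of the 17 and in 0.433% of the cells without Igkv. Other plasma markers ranged from Tnfrsf17, in 0 of the 17, to Txndc5, in all 17. Each B marker was also in a larger share of the 17 than of the cells without Igkv. Cd79a was in 3 of the 17 against 1.3%, Pax5 in 9 against 6.55% and Bank1 in 11 against 11.6%. The part of depth in these marker shares was not tested.

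The segments in thymic cells with 1 or 2 Igkv UMIs were mixed. The 359 UMIs of these 341 cells came from 83 segments, and the 10 leading B-like segments made up 48.5% (43.2 to 53.8%). Igkv1-110 had 40 UMIs, Igkv4-68 29 and Igkv2-107 16. Igkv4-68, which was almost confined to CVS_C_3 among B-like cells of the 16 samples, was in 2, 8, 6 and 13 cells of tenxP_1 to tenxP_4, never above 1 UMI, and was not seen in the 17 cells with 3 or more Igkv UMIs. The members whose share in thymic cells outside B-like was most above that in B-like cells were Igkv3-2 (5.04% against 0.539%), Igkv8-21 (3.29% against 0.859%), Igkv3-4, Igkv19-93 and Igkv1-117 (7.24% against 4.38%). For Igkv3-2, 17 of 23 UMIs were in the cells with 3 or more.

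The Mini library, run apart from the WT library, had a lower level when pooled. Outside B-like cells 40 of 20018 cells (0.200%, 0.143 to 0.272%) had an Igkv UMI, 0.929 CPM, and 0.0410% at 1000 UMIs per cell. By sample the level was 1.39, 1.71, 0.126 and 0.475 CPM in T-1-A, T-1-B, T-2-A and T-2-B, beside 1.34 to 1.89 in the thymic wells. Without the cell with most Igkv UMIs in each, T-1-A was at 1.03 and T-1-B at 0.430 CPM. Of the 40 cells, 33 had 1 UMI, and 6 had 3 or more, each from a single segment and each with 13 or more Igkc UMIs. A cell of T-1-B with 86776 UMIs held 33 of Igkv3-2 and 88 of Igkc. Igkv4-68 had no UMI in the Mini library and Igkv2-107 had 2.

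B-like cells of the Mini library numbered 67 and had 56 Igkv UMIs, at 247 CPM, of which 50 were in T-2-B. A single cell of that sample held 34 UMIs of Igkv1-110 and 215 of Igkc, with plasma markers at 164 per 10000 UMIs and B markers at 3.01. The other 9 Mini cells with Igkv1-110 had 1 UMI each, 5 of them in T-2-B. Another B-like cell of T-2-B held 9 UMIs of Igkv12-46, with 73.7 and 7.05 per 10000. A B-like cell of T-1-A held 3 of Igkv14-111, with 127 and 4.64. In contrast, a B-like cell of T-2-B with 3 of Igkv8-28 had 5.22 and 145. The Mini library had no plasma-like class, so the 247 CPM includes such cells with raised plasma markers. Outside B-like, a thymocyte-like cell of T-1-A held 9 of Igkv4-72. The Mini signal outside these cells was too sparse to rank segments, with 35 UMIs from 23 segments in cells with 1 or 2 Igkv UMIs outside B-like.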

How the data were processed

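UMI counts per cell and gene were used as the authors deposited them, without normalization: the authors ran split-pipe with an mm10 index, called cells and combined 9 sublibraries of the WT kit and 2 of the Mini kit. For the pipeline version and the use of strand in counting, nothing was given in the sources used here. The 10x libraries are not analysed here. Because the entries of the series are sublibraries, cells were assigned to tissue samples by the deposited cell table. Total UMIs per sample were 5405078 to 91172408 in the 16 samples, 30450786 to 124106974 in the thymic samples and 28057164 to 33264104 in the Mini samples.

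Each set of samples was clustered without immunoglobulin genes (log counts per 10000, 2000 variable genes, 30 principal components, 20 neighbours, Leiden at resolution 1; scikit-learn 1.9.0, igraph 0.11.9, leidenalg 0.10.2, scipy 1.17.1). Clusters were named from marker lists when at least 3 markers were raised 1.25-fold or more. The naming rule, the definition of a companion and that of a segment that stood out in a sample were set after the data were seen, all cells were kept, and doublets were not called. Levels are CPM (UMIs scaled to 1000000 outside ribosomal RNA), and shares were also computed for cells thinned to 1000 UMIs. An alternative kept cells of 500 to 25000 UMIs with no more than 15% from mitochondrial genes. Functions were tested on simulated data. Positions and transcripts are from GENCODE M21. Recombination signals and promoter octamers, which need the genome sequence, are not analysed here.

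The members and lists were chosen with earlier results of these data known. Named segments are the 10 leading in B-like and 5 in plasma-like cells, 5 on either side of the UMI limit, 5 with the largest and 5 with the smallest plasma-like to B-like ratio (20 or more UMIs in both classes together), 5 most raised in thymic cells, 5 leading in the Mini kit, and pseudogenes over 100 UMIs. Igkv1-99, Igkv17-121, Igkv4-55, Igkv15-103, Igkv8-27 and all Ighv genes were named after their values were seen.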

Additional observations from a re-analysis of the deposited data

Results flagged for a closer look

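Of 28 sets of 4 samples examined, 8 had a sample far from the other 3 by Dixon's criterion for 4 values at the 95% level. By chance about 1 in 20 sets would have one, and several of the sets share cells. That rate takes the 4 samples as independent, although each set of 4 came from a pair of mice. In the thymic wells, B-like cells of tenxP_1 had 101 Igkv UMIs in 233 cells, against 6 to 15 UMIs in 30 to 80 cells of the other samples. Without cells that have a barcode companion the level of tenxP_1 was 715 CPM against 71.0 to 142, and 41 of its 43 UMIs were in the cell with Igkv12-46. T-like cells of tenxP_4 had 29 Igkv UMIs against 0 to 2, where that sample also had the most T-like cells (3325). Outside B-like cells tenxP_1 had 1.34 CPM against 1.80 to 1.89. In the Mini library, B-like cells of T-2-B had 50 Igkv UMIs against 0 to 4, 34 of them in the cell with Igkv1-110. T-like cells of T-1-A had 6 Igkv UMIs against 0 to 1, or 0.963 CPM against 0 to 0.135, and 0.0931% of them were positive at 1000 UMIs against 0 to 0.0148%. Of these 6 UMIs, 3 of Igkv4-70 were in a single cell.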

How the results depend on the processing

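Of 44 alternatives other than leaving out a sample, 27 left the value within the interval of the reported one (for the number of members, within 1.5 times) and 17 moved it. The count of members was 106 at 10 UMIs and 74 at 50. The share of the most used segment in B-like cells was 10.6% as the median over samples, 14.6% without segments that share sequence and 13.5% at resolution 0.5, with Igkv2-107 leading each time. That in plasma-like cells was 6.65% by cells. The share of B-like cells with more than 1 segment was 77.5% at 3 or more and 88.7% at 5 or more Igkv UMIs, 2.53% with 2 UMIs needed for a segment (8.28% in plasma-like cells, a reversed order, though only 373 of the 2880 B-like cells had the 4 UMIs this takes), 60.4% within the limits on depth and mitochondrial UMIs, 56.1% without cells over 10000 UMIs, 61.4% without segments that share sequence, 65.5% at resolution 0.5 and 54.2% without pseudogenes. The T-like to B-like ratio was 0.0872 in T-like cells with no B marker UMI. The share of thymic cells outside B-like with an Igkv UMI was 0.151% at 1000 UMIs and 0.639% within the limits on cells, and that of Mini cells 0.0410% at 1000 UMIs. The pseudogene share of plasma-like cells was 0.209% without Igkv2-116. The causes were not tested beyond what each setting changes. The alternatives without barcode companions, pseudogenes or unnamed sub-clusters, and all those on pseudogene shares, were added after seeing the data, as were the shares of leading segments without the sample that holds most of their UMIs the Mini levels without the leading cell, the values without CVS_C_3, those of families and ratios of shares without other samples and those in cells with 4 or more Igkv UMIs.

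Leaving out each sample in turn gave 11.1 to 12.5% for the leading B-like segment, 60.2 to 64.9% for B-like cells with more than 1 segment, 0.0557 to 0.0790 for the T-like to B-like ratio, 13.2 to 14.6% and 0.223 to 3.11% for pseudogenes in B-like and plasma-like cells, 0.784 to 0.904% for the thymic cells and 0.144 to 0.249% for the Mini cells. The lowest plasma-like pseudogene share was without CVS_S_4. No paired analysis was possible because the labels give the tissue samples no groups whose numbers could pair them. The cell classes do come from the same samples; their values within each sample are set side by side, and no paired test of the classes was made. Most B-like cells hold 0 or 1 Igkv UMI, so absence of a segment from a B-like cell was not detectable at this depth.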
